A study of Caenorhabditis elegans with 2 samples.

Results

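The hmg genes of Caenorhabditis elegans, hmg-1.1, hmg-1.2, hmg-3, hmg-4, hmg-5, hmg-6, hmg-11 and hmg-12, encode high mobility group proteins. These 8 genes were taken by name from 19973 nuclear protein-coding genes, and the positions at which the HMG-1.2 protein was recovered on chromatin were read around each of them. The animals were whole young adults, 65 h old, of strain RW12210. This strain carries the allele st12210, in which CRISPR placed TY1, EGFP and 3xFLAG tags in hmg-1.2 on chromosome III. They were synchronised by starving L1 larvae after bleaching. All animals carried the tag, so the gene that was tagged is itself one of the 8. The labels do not say where in hmg-1.2 the tag lies. There was 1 group with 2 biological replicates, and the labels do not say whether they came from separate cultures. The immunoprecipitation used an antibody to GFP according to the sample description, whereas the antibody field names hmg-1.2. Control libraries and untagged animals were not analysed here, so a value at a gene has no background value from an untagged strain beside it.

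Many high mobility group proteins are abundant chromatin proteins that bind DNA with little sequence preference and change its shape. The HMG box bends DNA by inserting into the minor groove, and hmg-1.1 and hmg-1.2 encode worm relatives of the vertebrate HMGB proteins. HMG-3 and HMG-4 are homologues of SSRP1, the HMG-box subunit of the histone chaperone FACT, which takes nucleosomes apart and rebuilds them during transcription and replication. HMG-5 is related to TFAM, which packages mitochondrial DNA. HMG-11 and HMG-12 belong to the HMG-I(Y) type, which has AT hooks in place of the box. A protein can bind near its own gene or near genes of related proteins, and the peak lists show where the tagged protein was recovered in this family.

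The sequences under 6 of the summits are shown because they hold the short repeats and motifs described next to the peaks they belong to. Each is 200 bases of the RefSeq genome of the WBcel235 (ce11) assembly around a summit and is written in the direction of the hmg gene. The distance is that of the summit from the annotated 5′ end, and negative values lie upstream. Capitals mark matches on either strand to CTGCGTCTC, TTGGCGC or ACACACAC, which were chosen after the sequences had been read. The hmg-11 summit comes from replicate 2's list and the other summits come from the conservative list.
hmg-1.2 (-92 bp, chrIII:6280188-6280387, plus strand): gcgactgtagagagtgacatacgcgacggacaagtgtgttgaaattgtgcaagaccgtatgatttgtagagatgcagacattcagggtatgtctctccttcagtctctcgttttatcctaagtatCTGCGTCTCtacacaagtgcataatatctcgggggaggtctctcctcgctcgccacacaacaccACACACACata
hmg-1.2 (-1757 bp, chrIII:6278523-6278722, plus strand): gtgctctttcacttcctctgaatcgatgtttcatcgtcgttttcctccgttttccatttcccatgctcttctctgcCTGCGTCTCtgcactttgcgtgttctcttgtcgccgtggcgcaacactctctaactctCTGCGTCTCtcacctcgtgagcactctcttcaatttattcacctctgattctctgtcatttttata
hmg-12 (-543 bp, chrII:11915870-11916069, plus strand): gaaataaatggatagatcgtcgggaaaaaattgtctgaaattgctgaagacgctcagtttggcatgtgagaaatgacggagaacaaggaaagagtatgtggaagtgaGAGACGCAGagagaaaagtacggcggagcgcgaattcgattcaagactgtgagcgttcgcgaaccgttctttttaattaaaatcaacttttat
hmg-11 (-228 bp, chrII:4672757-4672956, plus strand): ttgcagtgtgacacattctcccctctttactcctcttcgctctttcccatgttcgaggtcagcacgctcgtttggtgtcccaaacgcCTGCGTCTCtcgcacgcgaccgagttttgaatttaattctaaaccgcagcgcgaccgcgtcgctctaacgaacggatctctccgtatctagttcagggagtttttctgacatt
hmg-1.1 (-287 bp, chrII:14250308-14250507, plus strand): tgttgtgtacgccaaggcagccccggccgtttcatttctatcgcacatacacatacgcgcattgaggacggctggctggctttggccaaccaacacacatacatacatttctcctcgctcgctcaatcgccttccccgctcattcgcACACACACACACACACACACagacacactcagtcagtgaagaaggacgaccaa
hmg-4 (-361 bp, chrIII:7381858-7382057, minus strand): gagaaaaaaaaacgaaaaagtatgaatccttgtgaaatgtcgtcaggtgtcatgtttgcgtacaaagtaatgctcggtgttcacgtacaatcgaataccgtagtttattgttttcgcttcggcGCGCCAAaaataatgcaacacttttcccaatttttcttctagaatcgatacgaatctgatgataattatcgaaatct

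CTGCGTCTC, or GAGACGCAG on the other strand, was present in both hmg-1.2 windows and in those of hmg-12 and hmg-11. The window at -1757 bp of hmg-1.2 held it at 2 places, with centres 20 bases before and 38 bases after the summit, and such a pair occurred in 4.89% of the 4149 windows of the conservative list. At the hmg-1.2 promoter its centre lay 29 bases after the summit, at hmg-12 11 bases after it, and at hmg-11 9 bases before it. Over the conservative list 24.7% of windows held the motif, and the nearest copy lay a median of 12 bases from the summit (quartiles 6 and 23). The share was 46.4% among the 414 peaks in the highest 10% by signal and 22.3% among the other 3735. Of 19973 windows of the same length just upstream of coding genes, 2.34% held it. These promoter windows were not matched to the peak windows in GC content or in distance from a gene, so the shares are a description. The remaining conservative windows of the hmg genes held no copy. A match describes the letters in a window and does not by itself mark a binding site.

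TTGGCGC occurred in the hmg-4 window, read as GCGCCAA, with its centre 26 bases from the summit. It was present in 4.39% of conservative windows and in 1.46% of the promoter windows. ACACACAC was found at 7 overlapping positions in 1 run at the hmg-1.1 promoter and at 1 position in the hmg-1.2 promoter window, near its 3′ edge. It was present in 6.05% of conservative windows and in 1.55% of the promoter windows.

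The peaks were read from 4 thresholded lists, which the authors made from the replicates. The conservative list, with 4149 peaks, and a larger list, with 6058, cover both replicates, and replicates 1 and 2 have lists of their own with 3340 and 5333 peaks. Each gene's window ran from 2000 bp upstream of its 5′ end to its annotated end, and a peak belonged to it with an overlap of at least 1 bp. A summit no more than 500 bp before or 100 bp after any annotated 5′ end of a gene was counted as a promoter summit. The signal of a peak is the authors' value on a scale that is not stated, so it was ranked within 1 list only, and a rank is also given as a percentage of that list, in which low values mean high signal. No read totals come with the lists. The sequencing depth is therefore unknown, and the larger number of peaks in replicate 2 was not read as biology.

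In the conservative list 6 of the 8 genes had a peak in their window, against 20.2% of all coding genes. The same 6 genes had one in the larger list, where the background was 27.4%. Replicate 1 alone placed peaks at 4 of 8 genes (background 16.2%) and replicate 2 at 7 of 8 (background 25.8%). Promoter summits were found at 5 of 8 genes in the conservative list, where 9.68% of coding genes had one, and at 5 of 8 in the larger list, where 13.7% did. Replicate 1 had promoter summits at 2 of 8, hmg-1.2 and hmg-6, against 6.91%, and replicate 2 at 6 of 8, against 13.3%. In the conservative list hmg-1.1 and hmg-12 held 3 peaks each, and 1.08% of all coding genes held 3 or more. At each of these genes 1 of the 3 had its summit past the gene's end, at 883 bp for hmg-1.1 and 1250 bp for hmg-12. In replicate 1 alone hmg-1.1 held 1 and hmg-12 held 2, and in replicate 2 they held 3 and 2. For hmg-1.2 the larger list and replicate 2 held 3 peaks, and the conservative list and replicate 1 held 2. These genes were listed by name with earlier results known, so the shares stand as a description without a test.

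The 11 conservative peaks in these windows amount to 38.6 per 100 kb of window. Over the windows of all coding genes the density was 5.07 per 100 kb. Both densities use the overlap of at least 1 bp. Of the 11 hmg peaks, 9 had their summit in the window. The hmg windows summed to 28.5 kb, and the median window of all coding genes was 4027 bp (quartiles 3215 and 5636). Of the 11 peaks, 5 lay in the upper 50% of the list by signal and 4 in the upper 10%. The hmg windows therefore held peaks at the top of the list as well as near its lower end. Of the 4, the summits at -1757 bp of hmg-1.2 and -543 bp of hmg-12 lay nearer to the 5′ ends of C18F10.7 and vps-15. The hmg-6 peak overlapped a small nucleolar RNA gene, and the remaining one was the hmg-1.2 promoter peak.

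**Figure D1:**
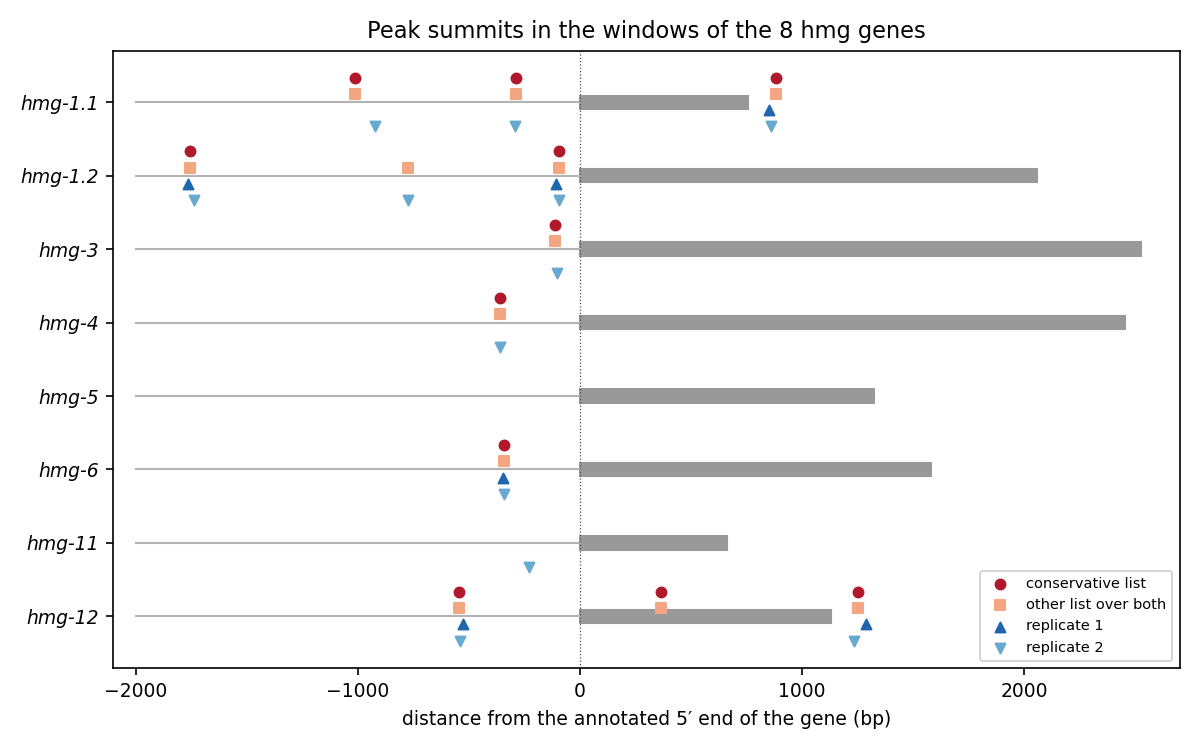
Positions of peak summits (symbols, 1 symbol shape and colour per thresholded list) relative to the annotated 5′ end of each hmg gene, in bp, with the gene as a grey bar and the upstream 2000 bp as a line. Summits in both replicates' lists are those at 883 bp of hmg-1.1, -92 and -1757 bp of hmg-1.2, -344 bp of hmg-6, and -543 and 1250 bp of hmg-12. Replicate 1's thresholded list has no summit at hmg-3 or hmg-4, and hmg-5 has none in any list shown.

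Among the HMGB-type genes, hmg-1.2 itself had the peaks of highest signal in its window. Its 5′ end lies at chrIII:6280380 on the plus strand, and its gene (WBGene00001972) ends at 6282438 and overlaps the 3′ end of gadr-3 on the other strand by 59 bp. The promoter peak, at chrIII:6280048-6280481, had its summit at -92 bp in the conservative list. In replicate 1 its signal was 234.65, rank 553 of 3340 (16.6%), with the summit at -106 bp. In replicate 2 its signal was 2261.8, rank 15 of 5333 (0.281%), with the summit at -92 bp. The summits differed by 14 bp, while the ranks differed by 16.3 percentage points. Among the 2640 conservative peaks found in both replicates, 45.9% differed by more, and the median absolute difference was 14.6 points. The promoter peak thus stood near the top of replicate 2's list and well below the top of replicate 1's. Among the 1682 conservative peaks with a promoter summit it ranked 35.

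The other hmg-1.2 peak of the conservative list lies in the same intergenic stretch of 2028 bp, at chrIII:6278470-6278790, with its summit at -1757 bp from hmg-1.2 and -272 bp from C18F10.7, which is transcribed away from hmg-1.2. It had a signal of 585.43 and rank 170 (5.09%) in replicate 1, and 1229.3 and rank 113 (2.12%) in replicate 2. The difference between replicates, 2.97 points, was smaller than in 84.4% of shared peaks. In replicate 1 this upstream peak outranked the promoter peak, and in replicate 2 the order was the other way round. Another summit, at -776 bp, appeared in the larger list at rank 4855 (80.1%) and in replicate 2 at rank 4806 (90.1%). It was not in the conservative list, and in replicate 1 the unthresholded ranked list held a peak with summit at -744 bp and an IDR score of 98. A score of 830 or more marked every thresholded peak.

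No thresholded peak of any list had its summit inside the hmg-1.2 gene. The replicates' ranked lists also hold peaks below the threshold. Replicate 1's ranked list placed summits inside the gene at 785, 1243, 1482 and 1685 bp, each with a score of 32, and replicate 2's at 1435 bp (score 612) and 2040 bp (score 645). A further summit of replicate 1, at 2185 bp (score 227), lay past the gene's end in a coding exon of gadr-3. The gene has 3 annotated transcripts with 3 different 5′ ends.

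By the sum of differences in percent rank over both replicates, the 5 genes whose promoter peak was most like that of hmg-1.2 were ari-2, gid-7, vps-25, pap-1 and ceh-100, out of 1213 genes with a shared promoter peak. Their distances ran from 2.12 to 3.95 percentage points, over 2 samples. For ari-2, the nearest, the ranks were 16.9% in replicate 1 and 2.04% in replicate 2.

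**Figure D2:**
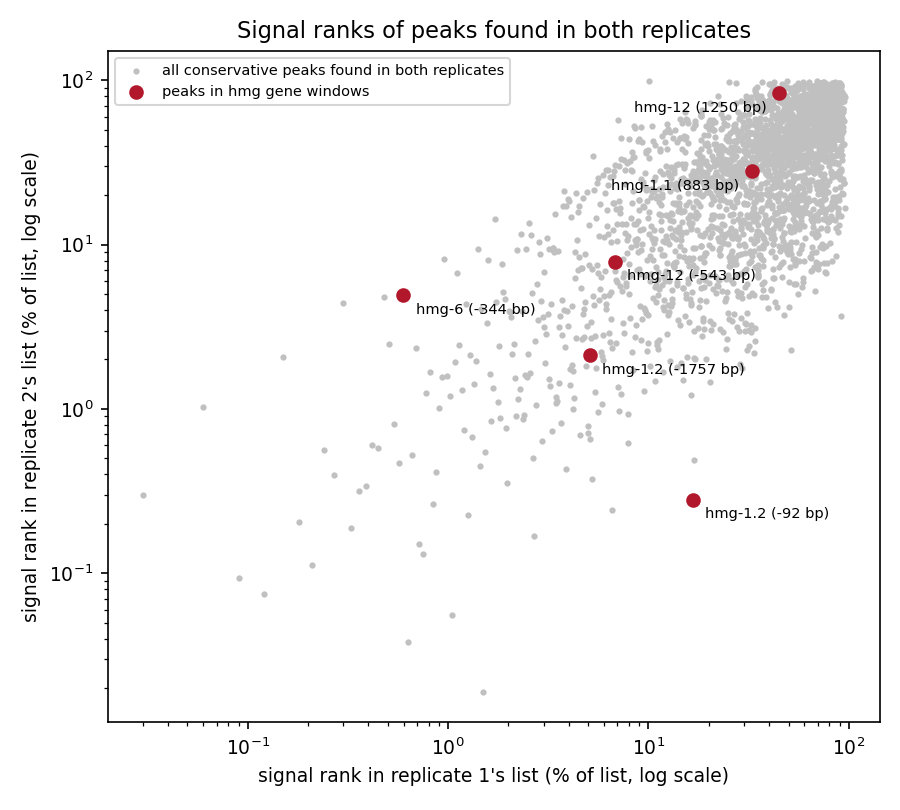
Signal rank in replicate 1's list (x axis) against replicate 2's list (y axis), both as a percentage of the list on log scales, for 2640 conservative peaks found in both replicates (grey) and the 6 of them in hmg windows (red, with summit distance from the 5′ end). The hmg-1.2 promoter peak stands at 16.6% and 0.281%, and the hmg-6 peak at 0.599% and 4.91%.

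The other HMGB-type gene, hmg-1.1 (WBGene00001971, chrII:14250695-14251450, plus strand), held 3 conservative peaks of lower signal. The one of highest signal, at chrII:14251426-14251660, began inside the gene but had its summit 883 bp from the 5′ end, past the gene's end, in the stretch of 906 bp before Y54G11A.2. Its signal was 135.16 and its rank 1094 (32.8%) in replicate 1, and 229.38 and 1490 (27.9%) in replicate 2. The replicate summits lay 8 bp apart. This was the only hmg-1.1 peak in both replicates' lists.

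The hmg-1.1 promoter peak, at chrII:14250243-14250572, had its summit at -287 bp and a rank of 2467 (59.5%). Replicate 2 had it at signal 154.03 and rank 2263 (42.4%). Replicate 1's ranked list held a peak there with summit at -264 bp and a score of 652, below those that passed. The last, at chrII:14249516-14249845 with its summit at -1014 bp, ranked 3856 (92.9%) and lay in the non-coding RNA gene Y48B6A.23. Replicate 2 ranked it 4324 (81.1%), with the summit at -921 bp, and replicate 1's ranked list gave it a score of 546. The annotated non-coding RNA genes Y48B6A.18 and Y48B6A.21, of the same length, 148 bp, overlap each other just upstream of hmg-1.1. Both also overlap the promoter peak, and their 5′ ends lie at -191 and -71 bp from the 5′ end of hmg-1.1. The promoter summit, at -287 bp, is thus nearer to the 5′ ends of both Y48B6A.18 and Y48B6A.21 than to that of hmg-1.1. Whether the peak goes with these RNA genes or with hmg-1.1 cannot be told apart from its position.

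The FACT-type genes each had 1 promoter peak below the middle of the conservative list. That of hmg-3 (WBGene00001973, chrI:5815609-5818132, minus strand) had its summit at -112 bp, between hmg-3 and the nuclear receptor gene nhr-2, whose end lies 341 bp upstream on the same strand. It had a signal of 143.82 and rank 3111 (75.0%), and in replicate 2 a signal of 108.9 and rank 3162 (59.3%). Replicate 1's thresholded list lacked it, and its ranked list held a peak at -143 bp with a score of 222. At its other end hmg-3 overlaps lin-35, the worm retinoblastoma gene, by 29 bp, and no thresholded peak lay there.

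The hmg-4 peak (WBGene00001974, chrIII:7379143-7381596, minus strand) was the narrowest of the 11 conservative ones, 91 bp. Its summit was at -361 bp from hmg-4 and -158 bp from T20B12.3, a gene on the opposite strand 518 bp away. Its rank was 2692 (64.9%) in the conservative list and 2566 (48.1%) in replicate 2, where the summit was at the same base. Replicate 1's ranked list held a peak at -299 bp with a score of 131. Because the summit is nearer to T20B12.3, hmg-4 was not counted when each summit was given to the nearest 5′ end alone.

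spt-16, which encodes the partner of SSRP1 in FACT, had 1 peak in its window and no promoter summit in any of the 4 lists. The hmg-3 and hmg-4 promoter summits were thus found in the conservative, larger and replicate 2 lists but not in replicate 1's thresholded list. Below the threshold, replicate 1's ranked list held a peak in each of these promoters. The spt-16 promoter had none in any of the 4 thresholded lists.

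No thresholded peak in any of the 4 lists fell in the window of hmg-5 (WBGene00001975, chrIV:7644895-7646219, minus strand), the TFAM-type gene. Replicate 2's ranked list held 1 peak there, with its summit at -1838 bp in a coding exon of nrde-4 and a score of 109, and replicate 1's ranked list held none. nrde-4 lies 100 bp upstream on the same strand. Of 4 other genes for mitochondrial DNA upkeep, mtss-1, the single-stranded DNA binding protein, had a promoter summit at -204 bp, rank 3453 (83.2%), and polg-1, twnk-1 and rpom-1 had none. The mtss-1 summit was present in replicate 2 and absent from replicate 1's thresholded list.

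hmg-6 (WBGene00009827, chrI:14059312-14060890, plus strand) had 1 peak, and it was among the highest of the whole set. The peak, at chrI:14058787-14059161, had its summit at -344 bp. Its signal was 1539.3 in replicate 1, rank 20 (0.599%), and 822.21 in replicate 2, rank 262 (4.91%), and the summits lay 2 bp apart. In the conservative list it ranked 71 (1.71%), and the hmg-1.2 promoter peak ranked 60 (1.45%). The order of these peaks changed between replicates, with hmg-6 ahead in replicate 1 and hmg-1.2 in replicate 2.

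The hmg-6 peak also overlapped a small nucleolar RNA gene of 72 bp, F47G4.9, which is transcribed away from hmg-6. Its summit was at -58 bp from that gene's 5′ end in the conservative list, and at -57 and -59 bp in replicates 1 and 2. Whether the peak goes with the snoRNA gene or with hmg-6 cannot be told apart from its position. Among the conservative peaks 2.72% had a snoRNA gene within 200 bp, and the share was 6.28% among the highest 10% by signal. F47G4.9 was the only tRNA, snRNA, snoRNA, miRNA, piRNA or rRNA gene in any of the 8 windows. The nearest such gene to an hmg-3 peak was 7312 bp away, and all others were farther.

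The AT-hook genes differed from each other. hmg-12 (WBGene00001977, chrII:11916513-11917643, plus strand) had 3 conservative peaks. The first, at chrII:11915846-11916128, had its summit at -543 bp, just outside the promoter window, and at -118 bp from vps-15, a gene on the opposite strand 660 bp away. Its signal was 468.29 in replicate 1, rank 226 (6.77%), and 617.42 in replicate 2, rank 420 (7.88%), a difference of -1.11 points that 93.2% of shared peaks exceeded in size. It was the hmg peak with the closest ranks in the replicates.

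Another hmg-12 peak had its summit at 1250 bp, past the gene's end in the 3′ UTR of lin-29, a gene on the other strand that shares 2 bp with hmg-12. Its rank was 1500 (44.9%) in replicate 1 and 4472 (83.9%) in replicate 2, a difference of -38.9 points, and the replicate summits were 56 bp apart. The last had its summit at 367 bp, in an hmg-12 coding exon, with rank 3802 (91.6%). It was in neither replicate's thresholded list, and the replicates' ranked lists gave it scores of 760 and 125. Of the thresholded peaks in the hmg windows, it was the only one with its summit in a coding exon of the gene itself.

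hmg-11 (WBGene00001976, chrII:4673085-4673746, plus strand) lies wholly within clec-140 on the same strand. Replicate 2 alone had a thresholded peak in its window, at chrII:4672699-4673014, with a signal of 99.207 and rank 3395 (63.7%). Its summit was at -228 bp from hmg-11 and -203 bp from clec-140. Neither thresholded list over both replicates held it, and replicate 1's thresholded list did not. Replicate 1's ranked list held no peak in the hmg-11 window, even below the threshold. The ranked lists over both replicates had no summit upstream of hmg-11 in that window either.

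The promoter summits of the 5 genes lay on both sides of the median position over all coding genes. Both sets hold only summits in the promoter window, so the outer limits are set by its definition. Over 2028 pairs of a gene and a conservative promoter summit, the median position was -193 bp and the quartiles -306 and -103 bp. hmg-1.2, at -92 bp, lay closer to its 5′ end than the near quartile, and hmg-6 and hmg-4, at -344 and -361 bp, lay beyond the far one. hmg-3 and hmg-1.1, at -112 and -287 bp, lay between the quartiles.

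**Figure D3:**
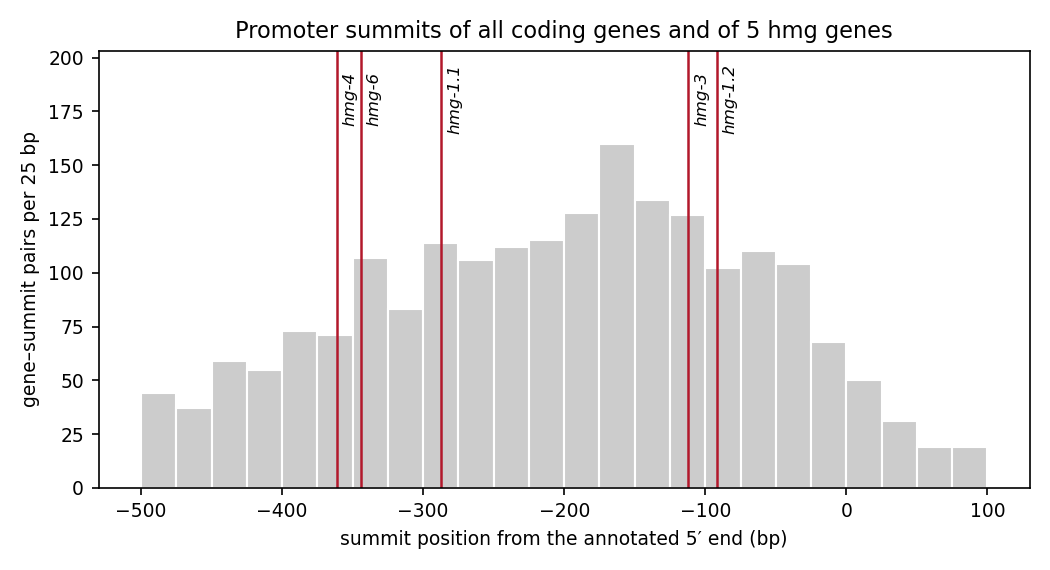
Numbers of gene and summit pairs per 25 bp (bars) for all coding genes with a conservative promoter summit, by summit position from the 5′ end in bp, with the 5 hmg genes as red lines. The lines run from -361 bp at hmg-4 to -92 bp at hmg-1.2, on both sides of the median of -193 bp.

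GC content was read over the summit and 50 bp on either side of it. The median of the 11 hmg peaks was 48.5%, the same as that of the 4149 conservative peaks (quartiles 43.6% and 54.5%), and the genome as a whole has 35.4%. In replicate 1 the hmg median was 51.5% and the list median 48.5%, and in replicate 2 they were 50.5% and 47.5%. The peaks varied widely among themselves. The hmg-6 summit had 66.3%, with 98.7% of conservative peaks lower, while the hmg-1.2 promoter summit had 40.6%, with 14.4% lower. The hmg-3 and hmg-4 promoter summits had 38.6% and 42.6%, and the upstream hmg-1.2 summit had 54.5%. The lowest in the conservative list was the hmg-12 peak in the lin-29 3′ UTR, with 34.7%. At this peak the replicate summits, 56 bp apart, gave 47.5% in replicate 1 and 28.7% in replicate 2, and in replicate 1 the lowest value was the 41.6% of the hmg-1.2 promoter summit.

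**Figure D4:**
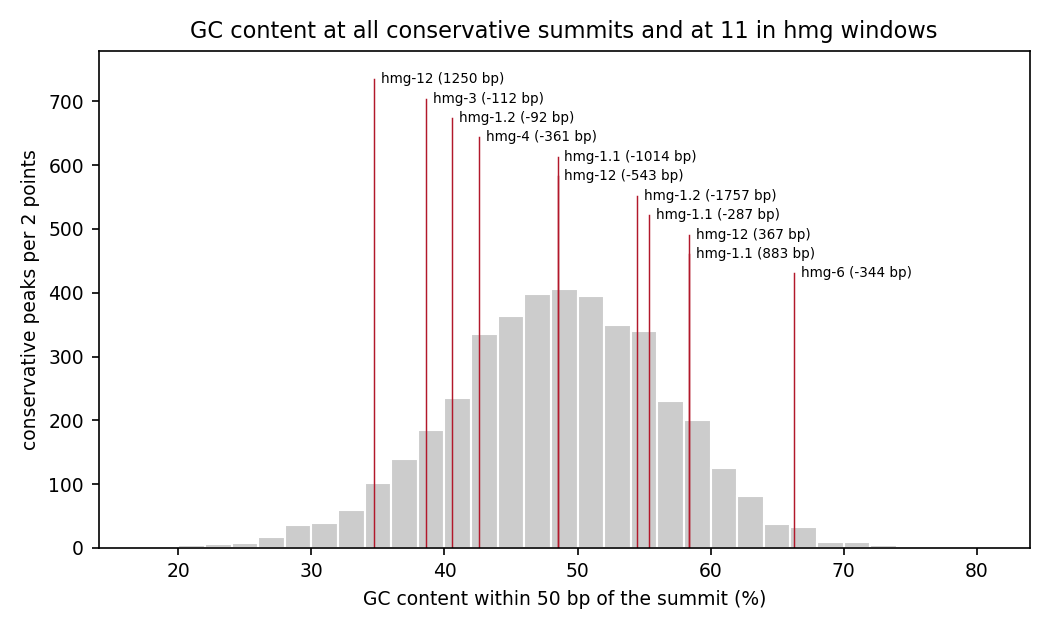
GC content within 50 bp of the summit, in percent (x axis), for all 4149 conservative peaks (bars, number per 2 points) and for the 11 in hmg windows (red lines, with summit distance from the 5′ end). The hmg summits run from 34.7% to 66.3% across the spread of the list.

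Other genes of related function were read the same way for reference, from lists that were also chosen with earlier results known. Of 7 other HMG-box genes, swsn-3 had a promoter summit in all 4 lists, at -148 bp and rank 2362 (56.9%) in the conservative one. swsn-3 encodes a subunit of the SWI/SNF chromatin remodelling complex, and the conservative summit lay in an intron of cox-6B. The other 6, sox-2, sox-3, sox-4, egl-13, sem-2 and pop-1, had none, although pop-1 had 1 peak in its window. Of 9 linker histone genes, 3 had a promoter summit: his-24 at 33 bp and rank 3460 (83.4%), hil-4 at -38 bp and rank 3031 (73.1%), and hil-7 at -136 bp and rank 2926 (70.5%). hil-5 had one in the larger list and in replicate 2. All of these linker histone summits were absent from replicate 1's list. Together 5 of the 21 genes had a conservative promoter summit, beside the 9.68% of all coding genes given above. None of the 5 ranked in the upper 50% of the list. Replicate 1's list had a promoter summit at 1 of the 21, against 6.91% of all coding genes. Replicate 2's list had one at 6 of the 21, against 13.3%.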

How the data were processed

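Peak lists from chromatin immunoprecipitation and sequencing of tagged HMG-1.2 were used, 2 replicates in 1 group. Per the labels they are on the ce11 build. Sources used here give neither an aligner nor a peak caller. The authors deposited for each peak an IDR score (irreproducible discovery rate, from 0 to 1000), a signal value on an unstated scale and a summit offset. The ranked lists also hold the deposited −log10 of the global IDR. The 8 columns per ranked list over both replicates that give single replicates' values were not used. Depth is unknown because the lists give no read totals.

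Genes came from Ensembl release 115 (WBcel235). RefSeq sequence of the same assembly was read with Python 3.11.15, with pandas 2.3.3, numpy 2.4.6 and matplotlib 3.10.9. The reading of windows was tested on simulated peaks. The 8 genes, the lists and the windows were chosen with earlier results of these data known, and the 3 motifs after reading the sequences. Neighbours, small RNA genes within 200 bp of a peak and all listed genes with a promoter summit were named. Genes like hmg-1.2 were the 5 with the smallest summed difference in percent rank. Alternatives were the larger list, each replicate alone, the upper 50% by signal, peaks found in both replicates, other windows, nearest-end assignment and other spans for GC content.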

Additional observations from a re-analysis of the deposited data

How the results depend on the processing

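Of the 44 alternative values computed for the counts, the GC content and the rank of the hmg-1.2 promoter peak, 30 stayed within the limits set and 14 moved past them. The limit was 1.5 times the reported value for a count, and 1 SD of the 2 replicates' own values for GC content (0.7 percentage points) and for the rank. The replicates' ranks differ widely, so 0.281% without replicate 1 lies within that limit of the reported 1.45%. Leaving out a replicate gave 6 to 12 peaks in the hmg windows (11 reported), 2 to 6 genes with a promoter summit (5 reported), 1 to 6 related genes with one (5 reported) and a median GC content of 50.5 to 51.5% (48.5% reported). Without replicate 2 the low values arose for the counts. The upper 50% of the list by signal gave 5 peaks, 2 genes with a promoter summit (hmg-1.2 and hmg-6) and 0 related genes. Peaks found in both replicates gave 6 peaks and the same 2 genes. A promoter window of 250 bp upstream to 50 bp downstream gave 2 genes (hmg-1.2 and hmg-3). No share of all coding genes is given for the upper 50%, the peaks found in both replicates or this narrow window. Whether the lower counts are particular to the hmg genes or the related genes was not tested. GC content was 47.8% over 100 bp either side and 42.1% over whole peaks. The hmg-1.2 promoter rank was 16.6% without replicate 2. The number of genes with a peak in the window ran from 4 to 7 (6 reported). Causes were not tested. Unknown depth limits every statement that a peak was absent.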
